A study of Mus musculus with 9 samples.

Results

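The collagen genes were examined as a family of HOX13 binding targets in the embryonic mouse distal forelimb. Members were all protein-coding genes of the GENCODE annotation of mm10 (GRCm38) whose symbol has the form Col, number, a, number, which gave 44 of 21938 protein-coding genes. Each gene was taken with 20 kb on either side, and every interval with a summit in that window was counted. Where intervals of the lists overlapped by at least 1 bp they were merged into 1 site, and 767 of 199969 merged sites lay in the collagen windows. Of these, 15 lay in the windows of neighbouring collagen genes (Col9a1 with Col19a1, Col4a1 with Col4a2, Col4a3 with Col4a4, Col4a5 with Col4a6) and were counted once.

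Binding was measured by CUT&RUN, in which a nuclease tethered to an antibody releases the bound chromatin for sequencing. Cells came from dissected distal forelimbs of B6CBAF1 embryos. Wild type (wt) embryos at E12.5 gave 3 libraries for HOXA13 and 3 for HOXD13. Embryos labelled II1TDOM 542 gave 2 libraries for HOXA13 at E12.5 and 1 for HOXD13 at E11.5. The stage of the latter is that of its title, whereas its growth protocol gives the same collection day as for the other libraries. The 542 allele carries the II1 limb enhancer and a LacZ reporter inserted into the T-DOM, the regulatory domain downstream of the HoxD cluster. It is a single line, its reads were mapped by the authors on the mutant genome, and its embryos were homozygous. Each library pooled cells of several embryos. The deposited lists held 23939 to 117719 intervals per library and came from 36.9 to 65.5 M read ends. Replicate 3 of both wt antibodies stood apart, with 12.7% and 12.8% of intervals at a fold enrichment of at least 5 against 20.9 to 32.2% in the other wt lists, and that of HOXD13 is described as a reanalysis of an earlier sample. Without replicate 3 of both, 7 collagen genes had a promoter interval in all remaining wt lists (25.5% of all protein-coding genes) and 33 had any interval in all of them (54.9%), against 6 and 30 in the full set below. Col9a3 and Col20a1 lie on chromosome 2 past the insertion, where the 542 coordinates differ, and were read in the wt lists. Peak lists hold no expression values, so the labelled tissue was not checked against its marker genes.

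Collagens are the main structural proteins of the extracellular matrix, and each is built as a triple helix of chains. Fibrillar collagens form the fibres of bone, tendon, skin and cartilage, FACIT collagens coat these fibres, network collagens build basement membranes, and transmembrane collagens sit in the cell surface. In the limb bud, the distal mesenchyme condenses into the cartilage models of the digits, and the change from type I to type II collagen is a classical sign of this step. HOXA13 and HOXD13, together called HOX13, are the homeodomain factors of the autopod, the future hand and foot. HOX13 factors prefer AT-rich sites with a TAAA core.

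The sequences below surround the summits of 7 of the best supported collagen sites, shown because they include promoters of fibrillar and transmembrane members and the highest intronic and flanking sites, with and without the HOX13 consensus. They are read from the plus strand of GRCm38 (RefSeq assembly), and capitals mark a match to CCNATAAA, CCNGTAAA, CTNATAAA or CTNGTAAA on either strand.
Col3a1 promoter, chr1:45312123-45312223: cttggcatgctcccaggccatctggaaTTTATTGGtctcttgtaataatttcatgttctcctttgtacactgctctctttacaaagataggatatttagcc
Col19a1 intron, chr1:24310384-24310484: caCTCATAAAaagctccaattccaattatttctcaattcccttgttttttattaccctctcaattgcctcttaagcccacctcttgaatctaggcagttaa
Col24a1 intron, chr3:145321047-145321147: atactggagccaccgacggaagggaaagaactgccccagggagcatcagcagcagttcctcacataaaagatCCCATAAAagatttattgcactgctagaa
Col1a1 promoter, chr11:94937093-94937193: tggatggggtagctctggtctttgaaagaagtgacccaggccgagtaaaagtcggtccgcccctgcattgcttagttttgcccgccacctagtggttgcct
Col25a1 promoter, chr3:130180635-130180735: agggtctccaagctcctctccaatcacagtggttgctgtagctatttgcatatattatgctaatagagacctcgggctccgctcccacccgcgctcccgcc
Col26a1 downstream flank, chr5:136738814-136738914: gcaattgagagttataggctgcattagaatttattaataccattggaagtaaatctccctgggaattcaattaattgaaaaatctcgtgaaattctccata
Col14a1 intron, chr15:55493030-55493130: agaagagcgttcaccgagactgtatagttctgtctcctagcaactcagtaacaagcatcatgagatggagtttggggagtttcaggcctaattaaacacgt
The Col3a1 window held CCAATAAA on the minus strand, starting at -23 bp from the summit. The Col19a1 window held CTCATAAA at -48 bp, and the Col24a1 window CCCATAAA at 22 bp after the summit. None of these letters was found in the windows of Col1a1, Col25a1, Col26a1 and Col14a1.

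Every collagen gene had an interval in at least 1 of the 6 wt lists, and 30 of 44 had one in all 6, against 49.5% of all protein-coding genes. Over all protein-coding genes, 14.8% had none. Collagen windows are long, however, with a median of 154 kb against 57.4 kb, and longer windows collect more intervals. Per Mb of window, collagen genes held 49.0, 30.3 and 31.9 intervals in the 3 wt HOXA13 lists and 13.7, 43.2 and 23.2 in the 3 wt HOXD13 lists. The means were 37.0 ± 10.4 (SD, n = 3) and 26.7 ± 15.1 (SD, n = 3), and the lists of both antibodies overlapped in this density. The 542 HOXA13 lists held 51.5 and 38.8 intervals per Mb, and the 542 HOXD13 list at E11.5 held 62.1. Divided by the density over the windows of all protein-coding genes, the collagen density was 1.13 ± 0.08 in the wt HOXA13 lists (SD, n = 3). It was 1.17 ± 0.12 in the wt HOXD13 lists (SD, n = 3), 1.09 ± 0.0066 in those of HOXA13 in 542 (SD, n = 2) and 1.12 in the single 542 HOXD13 list. With 5 kb in place of 20 kb on either side, the ratio was 1.05 for wt HOXA13 and 1.01 for 542 HOXA13. These ratios are a description, with no test.

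Within the family, the density differed widely between genes. Col2a1, the chain of cartilage type II collagen, had the highest mean over the 6 wt lists, at 84.4 intervals per Mb. It was followed by Col1a2, a chain of type I collagen, at 73.9, and by Col8a1, a short chain collagen, at 62.6. At the other end, the X-linked basement membrane chains Col4a5 and Col4a6 had 0.657 and 1.91 per Mb. Col4a5 held 1 interval in 1 of the 6 wt lists, and 3 in each of the 3 lists of 542. Col22a1, a FACIT member, had 5.99 per Mb and was empty in 3 of the 6 wt lists. By structural group, the lowest median per gene was 18.4 per Mb, in the multiplexin and other group (3 genes, Col15a1, Col18a1 and Col26a1). The highest was 51.1, in the short chain and anchoring group (4 genes). Fibrillar collagens (11 genes) had a median of 36.2, FACIT members (9 genes) 40.1, transmembrane members (4 genes) 32.5, basement membrane chains (6 genes) 21.3 and beaded filament chains (7 genes) 19.6. The median over the 44 members was 34.0, against 29.0 over all protein-coding genes. The 8 cartilage collagens, a list that overlaps these groups, had a median of 48.7. An interval in all 6 wt lists was present in 10 of 11 fibrillar genes, 7 of 9 FACIT genes and 2 of 7 beaded filament genes.

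**Figure D1:**
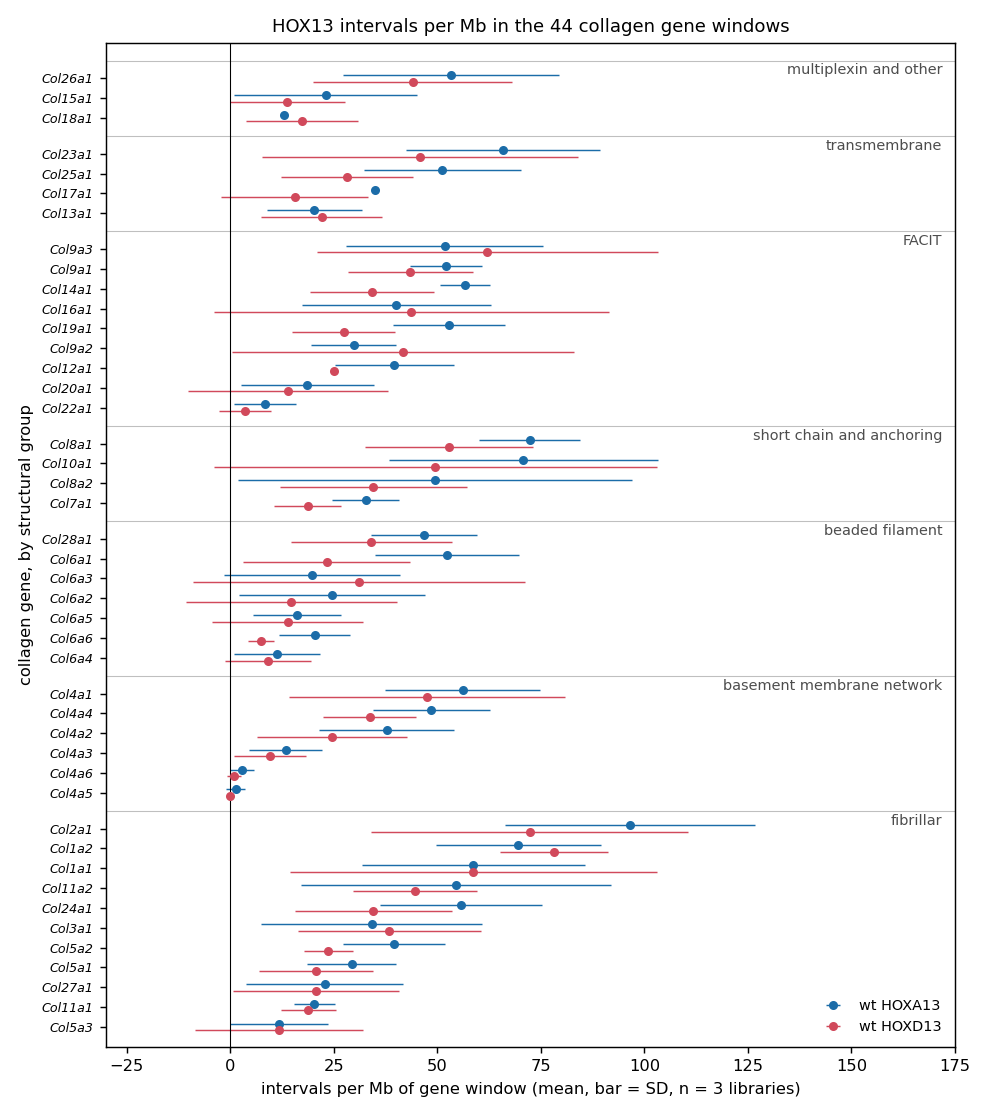
HOX13 intervals per Mb of gene window for each of the 44 collagen genes, grouped by structure, with the gene on the y axis. Points are means and bars SDs over 3 wt libraries for each antibody. Col2a1 is highest for HOXA13 (96.5 ± 30.1, SD) and Col1a2 for HOXD13 (78.2 ± 13.0, SD), and Col4a5 and Col4a6 lie near 0. Over the 6 wt lists together the means of Col2a1 and Col1a2 are the highest, at 84.4 and 73.9.

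Collagen sites lay mostly in introns. Of the 538 sites called in any wt list, 370 were intronic (68.8%), 56 lay in the upstream and 54 in the downstream flank, 31 within 1 kb of a transcript start of the gene and 27 in exons. The median window of 154 kb has 20 kb of flank on either side and is otherwise gene body. These shares were not set against the length of each class or against other genes. Sites called in all 6 wt lists numbered 52 in 24 genes, which is 9.67% of the 538 against 10.5% of all sites of the genome. Of these 52, 39 were intronic, 6 were in promoters, 5 in downstream flanks, 1 in an upstream flank and 1 in an exon. All 6 promoter sites were also present in the 3 lists of 542, and 46 of the 52 were called in all 9 lists. The same share over all sites of the genome was not computed. The 542 lists were long, with 74344 to 117719 intervals against 23939 to 86941 in the wt lists. Distance to a collagen gene does not assign a site to it, since 5 of the 52 lay within 1 kb of the start of another gene. These included the site downstream of Col16a1, which falls at the start of Pef1, and that downstream of Col7a1, which falls at the start of Pfkfb4.

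**Figure D2:**
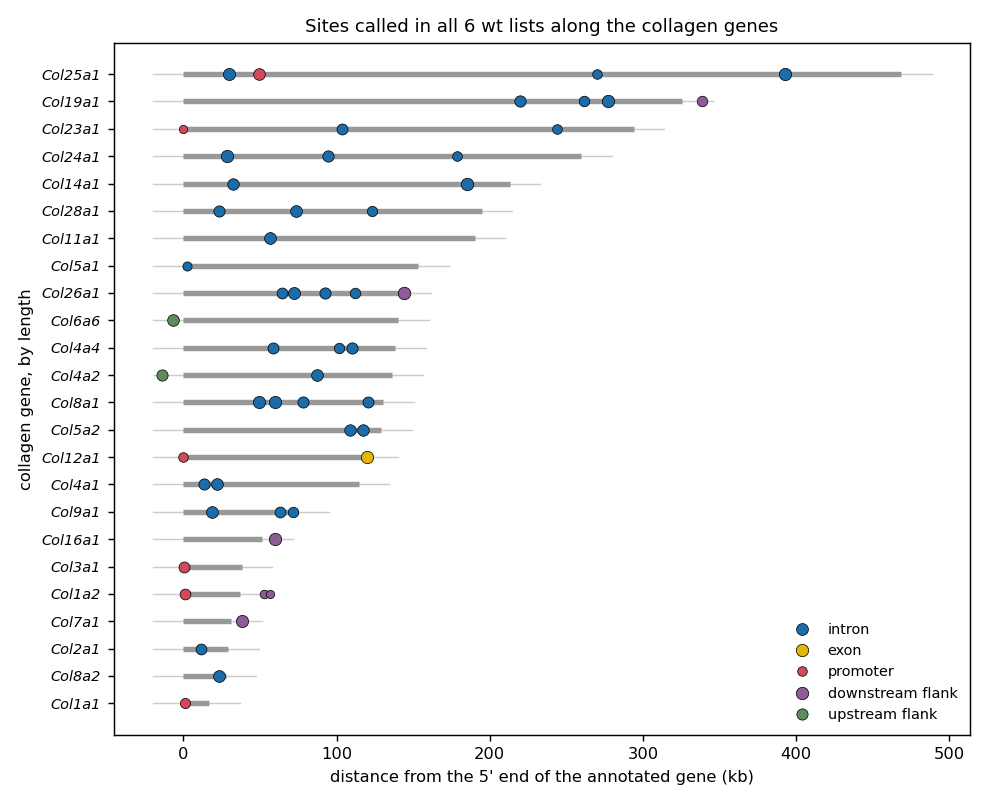
Position of the sites called in all 6 wt lists along the 24 collagen genes that hold one, as distance from the 5' end of the annotated gene in kb (x axis), with genes ordered by length (y axis). Grey bars are gene bodies, thin lines the 20 kb flanks, colours the class of position and point size the median percentile of fold enrichment; sites shared by neighbouring genes are drawn on both lines. Of the 52 sites 39 are intronic, and Col26a1 carries 4 intronic sites and 1 downstream.

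A promoter interval, with a summit within 1 kb of a protein-coding transcript start, was found in all 6 wt lists for 6 of 44 collagen genes, against 19.6% of all protein-coding genes. These were Col1a1, Col1a2, Col3a1, Col12a1, Col23a1 and Col25a1. No wt list held one for 13 of 44, against 37.3% of all genes, so that most collagen promoters (25 of 44) were called in some lists and not in others. The fold enrichment deposited by the authors, that is the pileup at the summit divided by the local background, is given below for each library, together with its percentile among the intervals of that library. At these promoter summits the wt pileups ran from 14 read ends (Col23a1, exact Poisson 95% interval 7.65 to 23.5) to 216 (Col25a1, 188 to 247). These intervals cover counting error alone.

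Col25a1, which encodes a transmembrane collagen of neurons, had the strongest of the 6 promoters, with a median percentile of 86.6. In wt HOXA13 its fold enrichment was 6.85, 7.25 and 4.75, and in wt HOXD13 it was 8.45, 11.7 and 4.26. The 542 lists gave 7.79 and 7.55 for HOXA13 and 13.9 for HOXD13 at E11.5. The summits lay between -240 and -179 bp from the start of its protein-coding transcript, which is inside the annotated gene. The values of both antibodies overlapped, with the lowest of each in replicate 3.

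Type I collagen, the main collagen of bone, tendon and skin, is built from the chains of Col1a1 and Col1a2, and both genes had a promoter interval in all 9 lists. At Col1a2 the wt HOXA13 values were 5.95, 4.42 and 3.33, and the wt HOXD13 values 4.80, 7.18 and 4.49. In 542 they were 6.19 and 4.22 for HOXA13 and 6.48 for HOXD13. The summits fell in the 5' untranslated exon, 153 to 211 bp past the start, so no sequence is printed. At Col1a1 the wt HOXA13 values were 5.12, 4.07 and 2.78, and the wt HOXD13 values 4.71, 4.51 and 3.80. The 542 lists gave 6.86 and 4.38 for HOXA13, and 9.85 for HOXD13 at E11.5, the highest of all 9. The Col1a1 summits lay inside an intron, 751 to 973 bp past the start, and with a limit of 500 bp this gene would not count as a promoter member. Nor would it with −log10 q of at least 5, or with the main summit of each interval alone.

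Col3a1 encodes type III collagen, which accompanies type I in skin and vessels. Of the 6 promoters, it was the one where the wt fold enrichments of the antibodies did not overlap. Its wt HOXA13 values were 7.48, 6.36 and 5.35, all above the wt HOXD13 values of 4.66, 3.12 and 3.27. The means were 6.40 ± 1.07 (SD, n = 3) and 3.68 ± 0.85 (SD, n = 3). The HOXA13 summits lay 605 to 635 bp past the start, whereas the HOXD13 summits were at 845, 63 and 657 bp, so the lists did not all name the same position. In 542, HOXA13 reached 9.04 and 9.96, above the 3 wt values, and HOXD13 at E11.5 reached 8.29. With each library centred on its median, however, the log2 difference of wt minus 542 HOXA13 was -0.12 (limma adjusted p = 0.866). Fold enrichment is not on 1 scale across libraries, and the test on centred values is given further on. There the log2 difference, HOXA13 minus HOXD13 with each library centred on its median, was 0.49 at Col3a1 (limma adjusted p = 0.449). It was -0.60 at Col25a1, -0.59 at Col1a2, -0.41 at Col1a1, -0.32 at Col23a1 and -0.035 at Col12a1. None of the 6 promoters had an adjusted p under 0.05.

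The 2 remaining promoters had the lowest median percentiles of the 6. Col12a1, a FACIT collagen of dense connective tissue, gave 6.90, 4.80 and 2.86 in wt HOXA13 and 3.75, 4.61 and 3.03 in wt HOXD13. In 542 it gave 4.80 and 4.24 for HOXA13 and 3.77 for HOXD13. Col23a1, a transmembrane collagen, had the lowest percentile of the 6, at 39.4. Its wt values were 4.69, 2.67 and 3.30 for HOXA13 and 3.32, 4.15 and 3.03 for HOXD13. The 542 lists gave 6.69 and 4.82 for HOXA13 and 8.42 for HOXD13. On centred values the log2 difference of wt minus 542 HOXA13 was -0.25 (limma adjusted p = 0.716). Just outside the threshold stood Col5a2, a chain of the type V collagen that limits fibril width, named here after its values were seen. Its promoter interval was present in 5 wt lists, at a median percentile of 94.9. The fold enrichment was 10.6, 9.44 and 4.55 in wt HOXA13 and 3.22 and 8.63 in wt HOXD13 replicates 1 and 2, and replicate 3 had no call there.

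**Figure D3:**
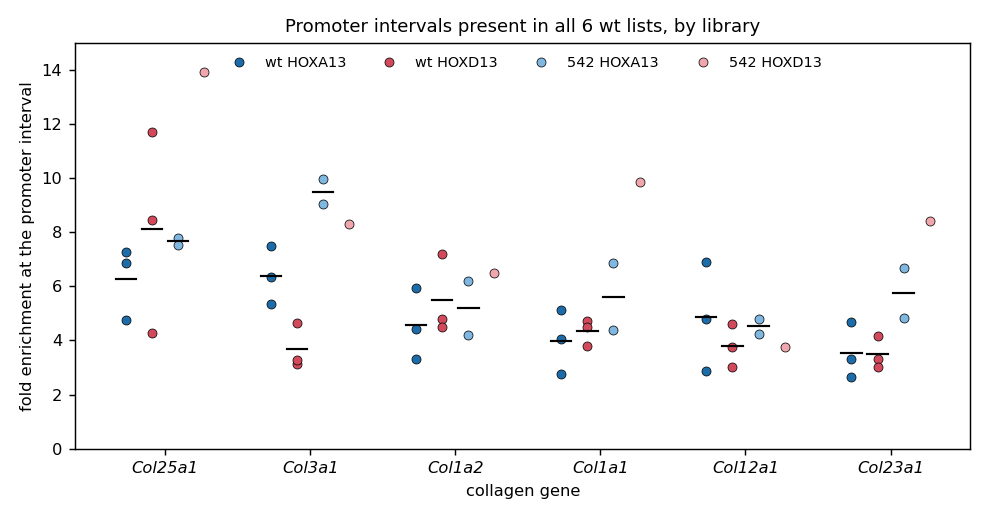
Fold enrichment (y axis, pileup over local background, no unit) at the promoter intervals of the 6 collagen genes with a call in all 6 wt lists (x axis, ordered by percentile). Each point is 1 library, black bars are means of groups with more than 1 library, and colours give antibody and genotype; HOXA13 lies above HOXD13 in wt for Col3a1, while the groups overlap at the other promoters in wt.

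In wt, intervals with a promoter summit made up 7.06%, 7.62% and 5.88% of the collagen intervals for HOXA13 and 10.5%, 10.3% and 8.70% for HOXD13. Each HOXD13 list thus had a larger promoter share than each HOXA13 list (6.85 ± 0.89% against 9.85 ± 1.01%, SD, n = 3 each, two-sided exact permutation p = 0.1, the smallest that 3 against 3 allows). The same order held over all protein-coding windows, with 22.9 ± 2.1% against 29.2 ± 4.6% (SD, n = 3 each, exact permutation p = 0.1), and this share was compared after its values were seen. The collagen shares were the lower ones, in windows that are longer.

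Of the 8 cartilage collagens, 0 had a promoter interval in all 6 wt lists, against 19.6% of all protein-coding genes, and 1 (Col27a1) had none in any wt list. The 0 depends on the limit of 1 kb. With a limit of 2000 bp, Col9a1 and Col9a2 had one in all 6 wt lists, as did 21.4% of all protein-coding genes. The promoter of Col2a1 was called in 1 of 6 wt lists (HOXD13 replicate 2, fold enrichment 4.10) and in 2 of 3 lists of 542 (2.29 and 3.13). Its site in all 6 wt lists was intronic, 11515 bp past the nearest start (chr15, summit 97993142). The values there were 6.63, 3.64 and 2.78 for wt HOXA13 and 4.66, 5.28 and 5.66 for wt HOXD13, whereas the 542 lists gave 10.0, 9.55 and 8.47. On centred values the log2 difference of wt minus 542 HOXA13 was -0.81 (limma adjusted p = 0.177). A further site, at -17410 bp from the start of Col2a1, was called in 5 wt lists, with 6.44, 5.04 and 4.34 for HOXA13 and 2.28 and 3.50 for HOXD13. The 542 HOXA13 lists had 8.13 and 9.64 at that site, and the centred difference of wt minus 542 was -0.31 (limma adjusted p = 0.608).

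Col9a1, whose FACIT chain decorates type II fibrils, had 3 sites in all 6 wt lists, each in an intron. The strongest lay 1046 bp past an internal transcript start (chr1, summit 24196233). It gave 8.80, 6.59 and 4.33 for wt HOXA13 and 6.70, 10.4 and 3.55 for wt HOXD13. The Col9a1 promoter was called in 4 of 6 wt lists. Col11a1, a minor chain of cartilage fibrils, had 1 intronic site in all 6 wt lists, 56328 bp past the start (chr3, summit 114086868). Its wt HOXA13 values of 8.25, 7.13 and 6.83 were all above the HOXD13 values of 4.20, 4.19 and 5.58. On centred values the log2 difference, HOXA13 minus HOXD13, was 0.36 (limma adjusted p = 0.588). In 542 the same site had 6.80 and 6.46 for HOXA13 and 3.37 for HOXD13. Col10a1, the collagen of hypertrophic cartilage, had no site in all 6 wt lists and no interval at all in wt HOXD13 replicate 1, the list with the fewest intervals. Its best sites were called in the 3 wt HOXA13 lists and 2 wt HOXD13 lists. That in the upstream flank, at -18928 bp, gave 5.50, 6.46 and 5.59 for HOXA13 and 3.11 and 3.84 for HOXD13. The other, intronic by its strongest wt summit at 1103 bp, gave 5.23, 3.58 and 6.83 for HOXA13 and 3.52 and 6.49 for HOXD13. In 3 wt lists its summit lay 846 to 966 bp past the start, within the 1 kb limit. The Col10a1 promoter was thus called in 3 of 6 wt lists, and in 2 lists of 542.

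Among the sites called in all 6 wt lists, those of highest median percentile lay outside promoters. The 8 highest were at Col26a1, Col14a1, Col19a1, Col24a1, Col16a1, Col12a1, Col25a1 and Col8a1, between 94.8 and 98.1. The site downstream of Col26a1 (chr5, summit 136738864) gave 14.2, 13.1 and 7.61 for wt HOXA13, and 8.55, 9.86 and 6.38 for wt HOXD13. The 542 lists gave 16.7, 17.5 and 10.8 there. Col26a1 also held 4 intronic sites in all 6 wt lists, at percentiles of 71.0 to 91.1.

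Col14a1, a FACIT collagen of tendon and skin, carried its strongest site in an intron (chr15, summit 55493080). The wt values were 14.0, 11.1 and 3.94 for HOXA13 and 10.1, 12.3 and 5.86 for HOXD13. In 542 the HOXA13 lists had 8.72 and 8.24, and the HOXD13 list at E11.5 had no call. Replicate 3 was lowest for both antibodies. The Col14a1 promoter had no interval in any of the 9 lists.

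Col19a1, a FACIT collagen of basement membrane zones, and Col24a1, a fibrillar collagen of developing bone, had intronic sites of similar rank that hold the consensus shown above. The Col19a1 site gave 14.6, 15.7 and 5.81 for wt HOXA13 and 7.70, 9.97 and 5.53 for wt HOXD13, with 13.5, 13.8 and 11.2 in 542. The Col24a1 site, 28625 bp past the start, gave 15.3, 13.3 and 7.37 for HOXA13, and 4.64, 8.23 and 5.19 for HOXD13. The antibodies overlapped at Col24a1, since HOXA13 replicate 3 lay below HOXD13 replicate 2. In 542 the Col24a1 site had 16.4, 15.7 and 14.6.

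At Col25a1 and Col8a1 the leading intronic sites lay 343664 and 59899 bp past the start. Col25a1 gave 12.7, 9.59 and 5.33 for wt HOXA13 and 7.83, 8.84 and 5.52 for wt HOXD13. Col8a1, a short chain collagen of vessels and cornea, gave 12.2, 9.35 and 5.71 for HOXA13, and 6.23, 9.46 and 5.94 for HOXD13. The Col12a1 site fell in the last exon, in untranslated sequence (chr9, summit 79599051), and gave 11.7, 8.35 and 7.35 for HOXA13 and 7.58, 8.86 and 6.16 for HOXD13. The Col16a1 site is the one at the Pef1 start and gave 10.4, 6.25 and 8.37 for HOXA13, with 6.06, 10.5 and 8.22 for HOXD13. At these 4 sites the ranges of the antibodies overlapped.

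The 8-letter consensus was found within 50 bp of the summit at 16 of the 52 collagen sites in all 6 wt lists (30.8%, exact Clopper-Pearson 95% interval 18.7 to 45.1%). The share over all 13953 such sites of the genome was 25.8%, which lies inside that interval. It was found at 14 of 39 intronic sites, 1 of 6 promoters, the single upstream site, 0 of 5 downstream sites and at no exonic site. In windows of the same size 1000 bp before the summit, 0 of 52 collagen sites held it (upper bound 6.85%), and 1000 bp after it, 2 of 52 did. Over all sites these flanking shares were 4.60% and 4.82%.

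HOXA13 and HOXD13 were compared at the 52 collagen sites on log2 fold enrichment, with each library centred on its median over the 13953 sites called in all 6 wt lists. No collagen site passed (limma, Benjamini-Hochberg adjusted p under 0.05 over all sites, lowest 0.169 at Col6a6), and 1 of 13953 sites did in the whole genome (0.00717%). At an unadjusted p under 0.05 there were 7 collagen sites and 1890 sites of the genome. The log2 difference, HOXA13 minus HOXD13, ran from -0.69 to 0.79 with a median of -0.02, 25 sites higher and 27 lower. The median 95% half-width was 0.50 on that scale, so differences of this size cannot be told from none. In simulated data of the same spread and 13953 sites, the test recovered 92% of changes of 3, 56% of changes of 2 and 6% of changes of 1 on the log2 scale. Before centring, 39 of 52 collagen sites had a higher mean for HOXA13 (75.0%), as did 80.2% of all 13953 sites. Without wt HOXA13 replicate 3, no collagen site passed either, while 413 sites of the genome did.

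**Figure D4:**
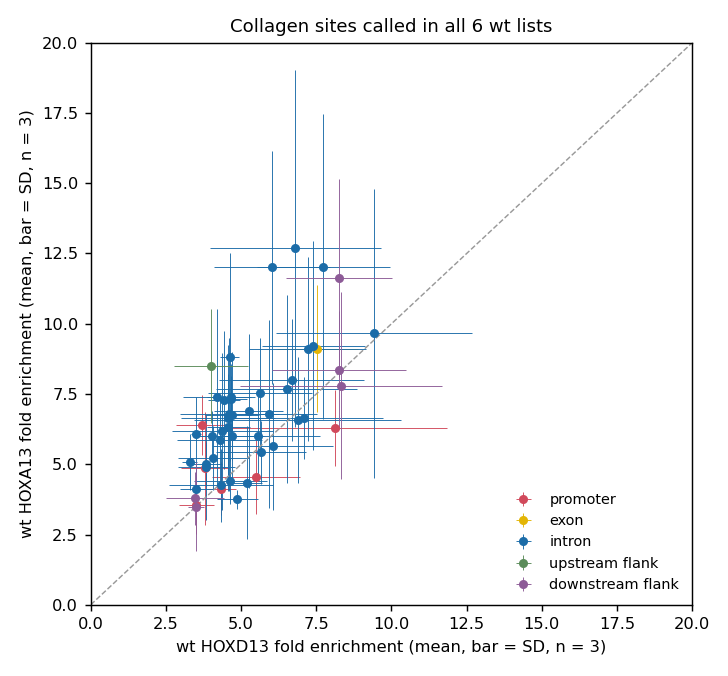
Mean fold enrichment of wt HOXA13 (y axis) against wt HOXD13 (x axis) at the 52 collagen sites called in all 6 wt lists, with bars for the SD over 3 libraries each, colours for the class of position and a dashed line of equality. Of the 52 points, 39 lie above the line.

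Sites were also compared by presence. Of the 538 sites in any wt list, 9 (1.67%) were called in all 3 wt HOXA13 lists and no wt HOXD13 list, against 1.36% over the genome. The leading 5 were intronic, at Col8a1 (fold enrichment 6.72, 5.97 and 3.21), Col28a1 (6.68, 4.81 and 3.53), Col19a1 (4.92, 4.47 and 4.80), Col5a2 (5.35, 4.47 and 3.50) and again Col19a1 (3.18, 4.14 and 3.50). In the 542 lists these 5 were called with both antibodies, including HOXD13 at E11.5. The converse was seen once, at -15516 bp from the start of Col1a2, with 3.75, 4.72 and 3.30 in wt HOXD13 (0.186% of 538 against 0.0307% over the genome). That site was called for HOXA13 in both 542 lists, at 2.94 and 3.85. Leaving out a list loosens this rule, so the counts can only stay or rise. No share over the genome was computed for the looser rule. The counts for HOXA13 came to 24 without wt HOXA13 replicate 3, 20 without wt HOXA13 replicate 2 and 22 without wt HOXD13 replicate 2. For HOXD13 the count came to 3 without wt HOXA13 replicate 1, 4 without wt HOXD13 replicate 1 and 2 without wt HOXD13 replicate 3.

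The genotypes were compared with HOXA13 at E12.5. At the 104 collagen sites called in all 5 lists, none passed (limma, lowest adjusted p 0.132), nor did any of 27085 sites of the genome (0%). At an unadjusted p under 0.05 there were 14 and 3668. The log2 difference, wt minus 542, ran from -0.81 to 0.96 with a median of 0.09, against 0.06 over all sites, and its median 95% half-width was 0.53. In simulated data with 27085 sites the test recovered 78% of changes of 3, 40% of changes of 2 and 0% of changes of 1. The call changed when wt HOXA13 replicate 3 was left out. Without replicate 1 or 2 of wt HOXA13, no collagen site and no site of the genome passed. Without replicate 3, 2004 of 35974 sites of the genome passed, 1327 higher in wt and 677 lower. Among collagen sites 8 of 131 passed, 6 higher in wt and 2 lower. The largest were an intronic Col14a1 site (chr15, summit 55487214) at 1.04 ± 0.22 (SE, limma adjusted p = 0.0174) and a site downstream of Col6a2 at -0.91 ± 0.22 (SE, adjusted p = 0.0293). The Col14a1 site described above was also higher in wt, as were a site in the downstream flank of Col2a1 (summit 97975429) and intronic sites of Col26a1 (136791048), Col8a1 (57705104) and Col6a5 (105959275). Those of Col2a1 and Col8a1 are not the sites described above, and the intronic Col2a1 site had a difference of -0.72 and did not pass (adjusted p = 0.066). A site upstream of Col19a1 was lower in wt. Genotype and the genome used for mapping cannot be told apart here.

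Of the 511 collagen sites in any HOXA13 list outside chromosome 2 past the insertion, 4 were called in all 3 wt and neither 542 HOXA13 list (0.783% against 0.434% over the genome). They were at Col4a4 (7.54, 6.51 and 3.99 in wt HOXA13), Col15a1 (6.28, 3.65 and 4.74), Col28a1 (3.47, 4.14 and 3.64) and Col23a1 (4.42, 2.76 and 2.84). The Col28a1 site, in an intron, was called in all 6 wt lists, with 4.88, 5.54 and 4.20 for HOXD13, and in none of the 3 lists of 542. The converse held for 23 sites (4.50% against 5.99%), led by introns of Col25a1 (5.74 and 4.11), Col18a1 (4.21 and 5.01), Col23a1 (4.75 and 4.39), Col14a1 (3.96 and 4.49) and Col19a1 (6.001 and 3.11). Here too, leaving out a list loosens the rule, so the counts can only stay or rise. No share over the genome was computed for such counts. The wt count came to 14 without wt HOXA13 replicate 2 or 3 and 7 without 542 HOXA13 replicate 1. The 542 count came to 52 without wt HOXA13 replicate 1, 38 without wt HOXA13 replicate 3, 40 without 542 HOXA13 replicate 1 and 85 without 542 HOXA13 replicate 2.

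Genes that make, cross-link or bind collagen were read in the same way. Of 34 such genes, 23 had an interval in all 6 wt lists (67.6%, against 49.5% of all protein-coding genes) and 7 had a promoter interval in all 6 (20.6%, against the 19.6% given above). These 7 were P4ha1 and P3h1, which hydroxylate prolines, Plod2 and Colgalt1, which hydroxylate and glycosylate lysines, Pcolce2, an enhancer of procollagen cleavage, Lox, which cross-links fibrils, and the collagen receptor Ddr2. In no wt list was there a promoter interval for P4ha3, Loxl2, Loxl4, Itga2 and Itga10, which are 5 of 34, against 37.3% of all genes. The median density of the 34 genes was 38.3 per Mb, against 29.0 over all protein-coding genes. Longer windows collect more intervals, and the windows of these genes were not matched in length to those of all genes.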

How the data were processed

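HOXA13 and HOXD13 CUT&RUN peak lists of 9 libraries were used as deposited, 1 list per library. Per the labels and methods, the authors trimmed reads with cutadapt, mapped them with bowtie2 on mm10 or the 542 mutant genome, and called peaks with MACS2 per sample without a control library, each read end extended to 200 bp. In the deposited files, fold enrichment is the pileup at a summit divided by the local background. The deposited −log10 p-value tests that pileup against a Poisson background, the deposited −log10 q-value adjusts it, and the deposited score is made from the latter. The listed commands mark duplicates and keep them in the peak call, whereas the study's software summary speaks of their removal. Kept duplicates would raise pileups.

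Summits listed under 1 start and end were read as 1 interval. Pileup and background were solved from fold enrichment and −log10 p, and pileups came out whole, within 0.01, for at least 99.99% of summits. Genes came from the GENCODE basic annotation of GRCm38. Differences were tested with limma 3.58.1 (R 4.3.3) on log2 fold enrichment, no pseudocount, at sites called in all libraries compared. Peak lists hold no value where nothing was called, so absence from a list is not absence of binding. Scripts were tested on simulated data.

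Members, gene lists and the rule for named sites were chosen with earlier results of these data known. Named were collagen promoters in all 6 wt lists, the 8 other sites in all 6 wt lists of highest median percentile (at most 2 per gene), up to 5 sites per direction of each contrast, and Col1a1, Col1a2, Col2a1, Col3a1, Col9a1, Col10a1 and Col11a1. Shared replicate numbers were not taken as pairs: the deviations of same-numbered HOXA13 and HOXD13 libraries correlated at -0.02, 0.23 and 0.54. Each library is a separate pool of embryos. Alternatives were other thresholds, windows, site definitions, scalings and leaving out each library.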

Additional observations from a re-analysis of the deposited data

How the results depend on the processing

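With intervals of fold enrichment of at least 5, no collagen gene had a promoter interval in all 6 wt lists (0 of 44, 3.42% of all genes) and 8 of 44 had any interval in all 6 (11.7% of all genes). The density then was 9.32 per Mb for wt HOXA13, 4.52 for wt HOXD13 and 16.9 for 542 HOXA13, and the ratio to all coding windows 1.04 for wt HOXD13 and 1.12 for 542 HOXA13. Sites of HOXA13 alone then numbered 5 and of HOXD13 alone 0, and sites of wt alone 0. With −log10 q of at least 5, the density was 22.2 for wt HOXA13 and 31.9 for 542 HOXA13 (ratio 1.05), sites of HOXD13 alone numbered 2 and of 542 alone 15. With 5 kb flanks the ratio was 1.05 for wt HOXA13 and 1.01 for 542 HOXA13. The consensus was found at 17.3% of sites within 25 bp (14.6% of all sites) and at 9.62% with the letters CCAATAAA, CTCATAAA and CTCGTAAA alone (9.45% of all sites).

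Without replicate 3 of both antibodies, an alternative chosen after seeing the data, sites of HOXA13 alone numbered 26 and of HOXD13 alone 2, and 235 sites of the genome but 0 of 70 collagen sites passed between antibodies. With single libraries left out, sites of HOXA13 alone numbered 10 to 24 and of HOXD13 alone 1 to 4. Sites of wt alone numbered 6 to 14 and of 542 alone 26 to 85. A rule over fewer lists is looser, so these counts could only stay or rise. With single wt HOXA13 libraries left out, collagen sites passing between genotypes numbered 0 to 8. With the replicate number as a block, 1 of 52 collagen sites (Col6a6, upstream) and 421 of 13953 sites passed between antibodies, and 8 of 104 and 1762 of 27085 between genotypes, 7 of these 8 also without wt HOXA13 replicate 3. With a mean fold enrichment of at least 5, 16 sites of the genome passed between antibodies, and with pileup scaled to read ends 9. Of 136 alternative values, 99 stayed within 1.5 times the count, 1 SD, or for the consensus the exact 95% interval, of the main value. Depth limits sites with few read ends: the lowest wt pileup among the 52 sites was 13 (exact Poisson 95% interval 6.92 to 22.2).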
